A study of Mus musculus with 19 samples.

Results

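Replication-dependent histone genes encode the linker histone H1 and the core histones H2A, H2B, H3 and H4 that package newly made DNA during S phase. Their symbols begin with Hist1h to Hist4h in the deposited table, and 46 of its 21685 genes matched that rule. By cluster, 42 belonged to Hist1, 2 to Hist2, 2 to Hist3 and 0 to Hist4. By class, 5 encoded H1, 8 H2A, 14 H2B, 9 H3 and 10 H4. A gene counted as measured where its value reached log2 of 10, or 3.32, in at least 4 libraries, and 10 of the 46 (21.7%) did, against 69.1% of all genes. These were Hist1h1a and Hist1h1c (H1), Hist1h2af (H2A), Hist1h2bc, Hist1h2bj, Hist2h2be and Hist3h2ba (H2B), Hist1h3c (H3), and Hist1h4d and Hist1h4i (H4).

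The series holds mRNA sequencing of male C57BL/6 mouse embryonic stem cells with or without Trim71 and Lin28a. Both encode RNA-binding proteins; TRIM71 is also a ubiquitin ligase, and LIN28A holds back the processing of let-7 microRNA precursors. In the names of the genotypes Trim71 comes first. WT-WT (4 libraries) carried floxed alleles of both genes. KO-WT (4 used) was Trim71-/- with floxed Lin28a. WT-KO (5) carried floxed Trim71 and was Lin28a-/-. KO-KO (5) was null for both. Trim71 mutation was induced with 500 nM 4-hydroxytamoxifen (4-OHT) for 2 days, at least 7 days before harvest, and the labels do not say whether the Trim71-intact cells received it as well. All cells grew in serum with LIF and were enriched for the surface antigen SSEA-1. Lin28a-intact libraries came from clones 1 and E3 and Lin28a-null libraries from clones 1-4 and C1, so Lin28a genotype and clone cannot be told apart. KO-WT replicate 5 held only the average of replicates 1 to 4 and was left out, so 18 libraries remained. They came from 5 harvest days, and the labels do not say that they are separate cultures beyond day and clone. The p-values then measure the spread between these libraries.

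Most replication-dependent histone mRNAs have no poly(A) tail. Their 3' end is a conserved stem-loop bound by the stem-loop binding protein SLBP, and the U7 small nuclear ribonucleoprotein, which contains Lsm10 and Lsm11, directs the cut just after it. Transcription is driven at the histone locus body by Npat, a target of cyclin E kinase, with Casp8ap2, and many H2B promoters carry an octamer read by Oct-1. The TruSeq RNA v2 kit used here selects poly(A) RNA and does not record the strand. Histone transcripts in such a library are mainly the polyadenylated forms that some of these genes also make. The values below therefore do not measure the whole histone mRNA pool.

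The stem-loop is shown because it defines the gene family and bears on which transcripts a poly(A) library can hold. The pattern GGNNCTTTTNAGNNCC on the transcript strand of GENCODE M21 models was found in 31 of the 46 genes. The letters are those of the DNA, the pairing arms of 6 bases are in lower case, and the loop of 4 bases is in capitals.
Hist1h1c, Hist3h2ba, Hist1h2bj and 15 genes not measured: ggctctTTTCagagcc
Hist1h3c and 4 genes not measured: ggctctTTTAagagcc
Hist1h4d and 3 genes not measured: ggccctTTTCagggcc
Hist1h4i and 1 gene not measured: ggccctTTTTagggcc
2 H4 genes not measured: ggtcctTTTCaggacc
The first form occurred in H1, H2A, H2B and H3 genes, the second in H2B and H3 genes, and the last 3 in H4 genes. Of the 10 measured genes, 6 had a match. Hist1h1a, Hist1h2af, Hist1h2bc and Hist2h2be had none in their annotated transcript, whose lengths were 741, 399, 1156 and 2620 bases. A model that stops before the loop cannot hold a match, and whether these models reach it was not examined. A missing match therefore does not show that a gene lacks the stem-loop. The same holds for the unmeasured genes without a match, among them Hist1h4k with a model of 312 bases. Among the 36 genes not measured, 25 had one. A transcript model running more than 100 bases past the loop was found for 4 of the 6 measured genes with a match: Hist1h1c (840 bases past it), Hist1h4d (770), Hist1h4i (330) and Hist3h2ba (169). Among the 25 unmeasured genes with a match, 14 had such a model.

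Promoter sequence is shown for the 3 genes that passed the test in at least 3 of the 5 genotype comparisons and had an entry in the RefSeq promoter table. It held 42 windows, from 250 bases before to 50 after the start, for 41 of the 46 genes (build GRCm38.p6). The 250 bases before the start are printed on the gene's strand, with matches to CCAAT and TATAAA, on either strand, in capitals.
Hist3h2ba, chr11:58948661-58948910, plus strand: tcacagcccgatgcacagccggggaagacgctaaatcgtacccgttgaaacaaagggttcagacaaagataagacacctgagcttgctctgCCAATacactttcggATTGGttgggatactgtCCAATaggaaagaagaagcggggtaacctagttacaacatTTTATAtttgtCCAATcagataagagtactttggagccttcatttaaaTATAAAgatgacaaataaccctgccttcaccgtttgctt
Hist1h1c, chr13:23738557-23738806, plus strand: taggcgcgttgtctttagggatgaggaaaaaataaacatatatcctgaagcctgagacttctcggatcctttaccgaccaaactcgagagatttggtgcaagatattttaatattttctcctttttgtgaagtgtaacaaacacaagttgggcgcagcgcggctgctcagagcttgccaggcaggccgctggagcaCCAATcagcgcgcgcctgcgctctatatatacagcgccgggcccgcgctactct
Hist1h2af, chr13:23533625-23533874, plus strand: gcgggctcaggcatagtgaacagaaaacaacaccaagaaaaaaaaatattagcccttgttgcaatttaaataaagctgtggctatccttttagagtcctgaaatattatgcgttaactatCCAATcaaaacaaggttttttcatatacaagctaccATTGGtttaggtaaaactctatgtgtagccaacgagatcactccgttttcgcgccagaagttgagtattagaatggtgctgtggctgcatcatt
Hist3h2ba had 4 matches to CCAAT and 2 to TATAAA, Hist1h1c had 1 and 0, and Hist1h2af had 2 and 0. Over the full windows, CCAAT was present in 36 of 42 histone promoters, against 37.4% of all 32851 promoters in the table. All H1, H2A, H2B and H3 windows held it, and 3 of 9 H4 windows did. TATAAA was present in 25 of 42, against 13.6%. The octamer ATTTGCAT was found in 4 of 8 H2A and 5 of 13 H2B windows and in no H1, H3 or H4 window, against 1.74% of all promoters. Hist1h2ae and Hist1h2bg have overlapping windows that hold the same octamer, as do Hist1h2ah and Hist1h2bk. Counts of windows, also for CCAAT and TATAAA, are therefore not counts of separate sites. The E2F-type letters TTTGGCGC and TTTCCCGC were found in 0 and 1 of the 42 windows, against 0.514% and 1.07%. No motif searched contains another, and a match is a description of letters only.

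The expression values are the deposited log2 normalised values, from which differences between harvest days had already been removed. Library depth is not recoverable from them, so no counting interval is given. The targeted transcripts separated the labelled genotypes: Trim71 lay between 8.77 and 9.55 in Trim71-null libraries and between 10.04 and 10.996 in the others, and Lin28a between 8.21 and 8.57 in Lin28a-null libraries and between 9.74 and 10.26 in the others. Of 7 embryonic stem cell markers, 6 were measured. The remaining marker, Fut4, ran from 2.66 to 3.41.

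Levels of the 46 genes were low throughout. The 36 genes that were not measured had mean values from 0.151 to 2.8, and none reached 3.32 in any library; their highest value was 3.23. The 10 measured genes had means from 3.43 to 5.28, and 8 of them were at or above 3.32 in all 18 libraries. Hist1h4d was in 14 and Hist2h2be in 16. Values are not divided by transcript length, so heights are compared between genotypes and not between genes. Just inside the limit lay Hist1h4d, with a mean of 3.43, and just outside it Hist1h2bk, with a mean of 2.80.

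**Figure D1:**
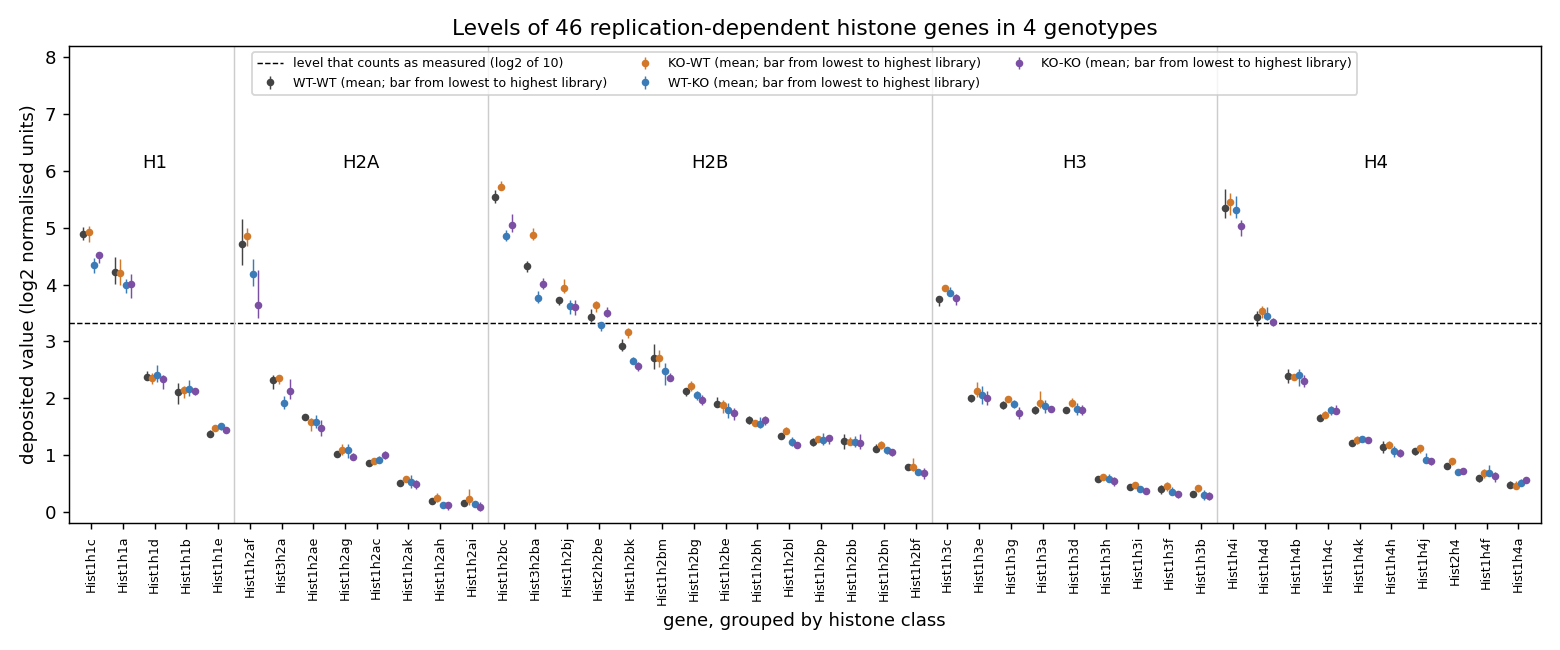
Deposited log2 value (vertical axis) of each of the 46 histone genes (horizontal axis, grouped by class), with the mean of each genotype as a point and a bar from its lowest to its highest library. The dashed line is the level of 3.32, and 10 genes reach it in at least 4 libraries.

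After loss of Lin28a some of the measured histone transcripts were lower, in either Trim71 state. In WT-KO against WT-WT, where Trim71 is intact, Hist1h2bc, Hist3h2ba, Hist1h1c and Hist1h2af fell by 0.53 to 0.69 log2 units. In Trim71-null cells (KO-KO against KO-WT) these 4 genes fell, and Hist1h4i and Hist1h2bj fell too. In KO-KO against WT-WT, where both genes are lost, the first 4 and Hist1h4i fell. No measured histone gene rose in these comparisons. After loss of Trim71 alone, Hist3h2ba rose, and none of the other 9 measured genes passed the test. Hist1h2bc, Hist1h2bj and Hist1h3c, among these, lay higher in every KO-WT library than in any WT-WT library. Their differences were 0.18, 0.20 and 0.19 log2 units (limma adjusted p 0.209, 0.155 and 0.109). The share of all tested genes without such overlap is not given here, so the separation cannot be weighed.

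These counts stand against a large background. With Trim71 intact, 4 of 10 histone genes were called at a Benjamini-Hochberg adjusted p under 0.05, 0 higher and 4 lower, while 42.4% of the 14988 tested genes were called, 20.3% higher and 22% lower. In Trim71-null cells, 6 of 10 were called, all lower, against 42.8% of all genes (20.8% higher, 22% lower). After loss of both, 5 of 10 were called, all lower, against 45.6% (21% higher, 24.6% lower). After Trim71 loss, 1 of 10 was called, higher, with Lin28a intact, against 11.2% (4.74% higher, 6.43% lower), and 1 of 10, higher, without Lin28a, against 8.38% (4.26% higher, 4.12% lower). For the interaction, which asks whether the Trim71 difference depends on Lin28a, limma called 0 of 10, against 0.02%. An unadjusted limma p under 0.05 was found for 4 of 10. The share of all tested genes under that limit is not given here, so this count cannot be weighed. For calls of either direction, shares of 4, 5 and 1 in 10 are near their backgrounds. Lower calls alone, at 4, 6 and 5 of 10, were a larger share than over all genes, and that difference was not tested. The 10 genes were also selected for reaching the level above, so the counts describe them and support nothing further.

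The median log2 difference of the 10 genes was -0.191 for Lin28a loss with Trim71 intact, -0.37 without Trim71 and -0.258 for loss of both, against -0.00774, -0.000818 and -0.0195 over all tested genes. Values lay below 0 for 8, 10 and 8 of the 10. In clones 1 and 1-4 alone these counts were 9, 9 and 9. For Trim71 loss the median was 0.165 with Lin28a intact and 0.00471 without, against -0.00459 and -0.00927. Values above 0 numbered 9 and 5. After each library's trend with transcript GC content and length was removed, the medians were 0.0756 and 0.0381 and values above 0 numbered 7 and 6. In clones 1 and 1-4 alone the medians were 0.104 and -0.03. Comparisons that share a genotype also share its libraries, so the 3 sets of lower genes are not independent of each other.

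**Figure D2:**
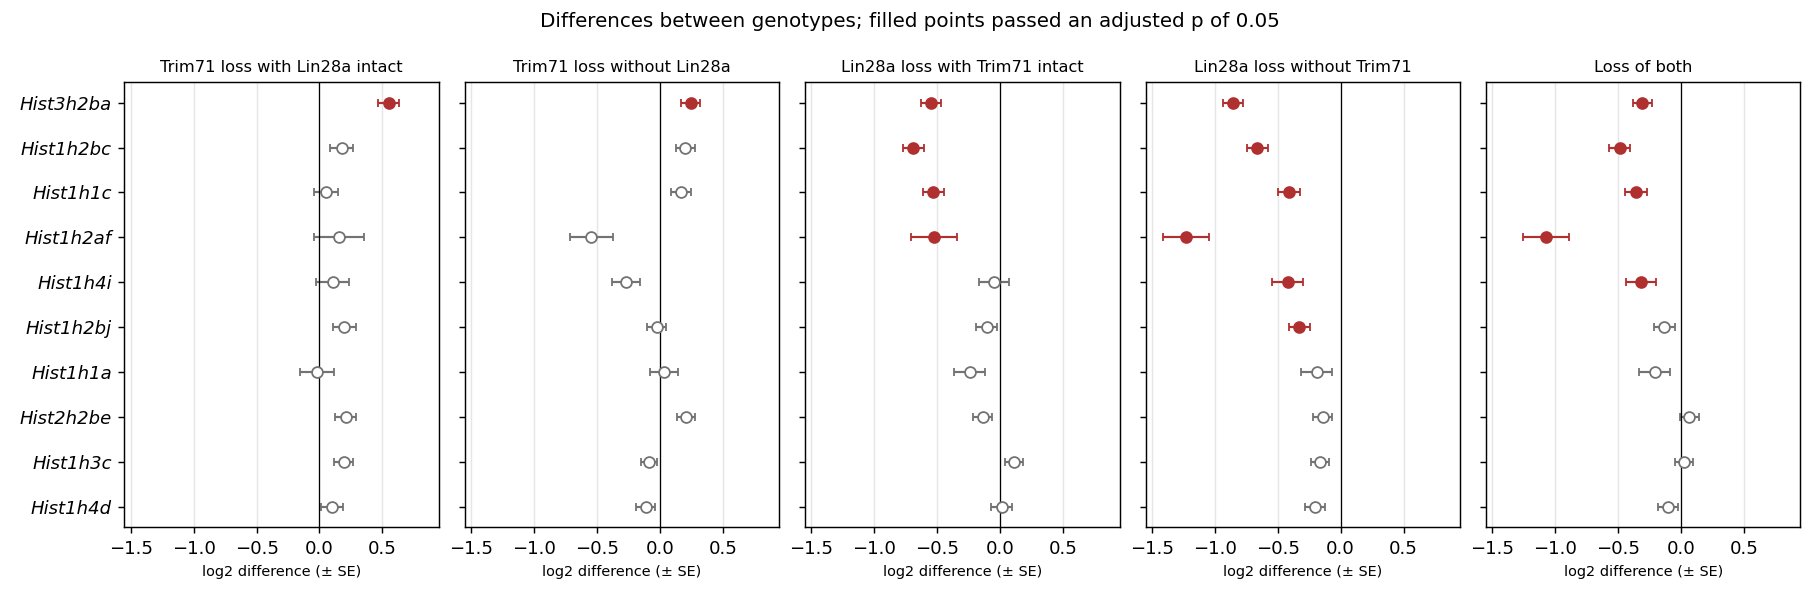
Log2 difference with its standard error (horizontal axis) of the 10 measured histone genes (vertical axis) in 5 genotype comparisons; filled points passed an adjusted p of 0.05. Hist3h2ba is filled in all 5 panels, and Hist1h1a, Hist2h2be, Hist1h3c and Hist1h4d in none.

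Among the H2B genes, Hist3h2ba was called in all 5 comparisons. Its values were 4.31, 4.41, 4.36 and 4.21 in WT-WT and 4.88, 4.78, 4.84 and 5.00 in KO-WT. They were 3.88, 3.67, 3.78, 3.71 and 3.82 in WT-KO and 3.93, 4.11, 4.01, 4.08 and 3.95 in KO-KO. No pair of genotypes overlapped: KO-WT was highest, then WT-WT, KO-KO and WT-KO.

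After Trim71 loss with Lin28a intact, Hist3h2ba was higher by 0.55 ± 0.0846 log2 units (SE), with a limma adjusted p of 0.00125. The direction held in 3 of 3 same-day pairs. The call was lost in a fit of the compared genotypes alone (0.54, adjusted p 0.108) and when only clones E3 and C1 were kept (0.44, adjusted p 0.14). Over 14724 genes, themselves no replicates, the difference between KO-WT and WT-WT rose with GC content (rank correlation 0.502), and the transcript of Hist3h2ba was 57.2% GC. With GC and length trends removed its difference was 0.44, with an adjusted p of 0.00577.

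Without Lin28a the rise of Hist3h2ba was 0.24 ± 0.0724, with an adjusted p of 0.0471 and in 5 of 5 pairs. That call rests near its limit: when libraries were left out in turn it was kept in 3 of 18 fits, those without WT-WT replicate 4, WT-KO replicate 1 and KO-WT replicate 4. Leaving out KO-KO replicate 2 gave 0.21, with an adjusted p of 0.149, the largest of the 18. It was also lost without the filter on low values, under 75th percentile scaling, in the compared genotypes alone, in either set of clones and in the days with all 4 genotypes, with adjusted p-values from 0.0534 to 0.745. The difference was 0.09 in clones 1 and 1-4 alone, where the adjusted p was 0.745, and 0.24 to 0.35 in the others. The interaction estimate was -0.31 ± 0.111 (adjusted p 0.249).

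In Lin28a-null cells Hist3h2ba was lower by 0.55 ± 0.0783 with Trim71 intact, at 0.683 of its WT-WT level (limma adjusted p 4.06e-05). In Trim71-null cells the difference was -0.86 ± 0.0783, or 0.552 of the KO-WT level (adjusted p 3.98e-07). Both differences were seen in 4 of 4 same-day pairs. Loss of both gave -0.31 ± 0.0783 (adjusted p 0.00469), and this call was lost in either set of clones alone, at adjusted p-values of 0.0671 and 0.0596. Of the 100-base windows of Hist3h2ba, 4.85% occurred in another transcript, that of the pseudogene Hist3h2bb-ps. Shorter matches and matches with mismatches were not examined, so the share of ambiguous reads is not known.

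Hist1h2bc, another H2B gene, had values of 5.66, 5.44, 5.60 and 5.48 in WT-WT and 5.69, 5.68, 5.83 and 5.67 in KO-WT. In Lin28a-null cells they were 4.86, 4.91, 4.95, 4.77 and 4.78 (WT-KO) and 4.93, 5.03, 5.10, 4.98 and 5.25 (KO-KO). Every Lin28a-null library lay below every Lin28a-intact library. Lin28a loss gave -0.69 ± 0.0838 with Trim71 intact (adjusted p 8.56e-06) and -0.66 ± 0.0838 without Trim71 (adjusted p 1.24e-05), or 0.62 and 0.632 of the starting level. The second call was lost in clones 1 and 1-4 alone (-0.57, adjusted p 0.0639), where KO-WT has 1 library and its spread is taken from the other genotypes. Loss of both gave -0.49 ± 0.0838 (adjusted p 0.000224). The differences with Trim71 loss were 0.18 ± 0.0906 and 0.20 ± 0.0776, with adjusted p-values of 0.209 and 0.125. Of its 100-base windows 25.4% were shared with other transcripts, mostly of H2B genes, and the counting of shared reads is not given in the sources used here.

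Of the other 2 measured H2B genes, 1 was called in a single comparison. Hist1h2bj fell without Trim71, by 0.33 ± 0.0827 (adjusted p 0.00442), from 3.93, 4.10, 3.85 and 3.85 in KO-WT to 3.47, 3.66, 3.57, 3.72 and 3.60 in KO-KO, with no overlap. The difference was -0.21 (adjusted p 0.0581) after removal of GC and length trends, and the call was also lost in each set of clones alone (adjusted p 0.231 and 0.054). In WT-KO against WT-WT its difference was -0.11 ± 0.0827 (adjusted p 0.306). Of its windows 40.1% were shared with other transcripts. Hist2h2be, which encodes an H2B variant known from olfactory neurons, was called in no comparison. Its differences were 0.21 ± 0.0818 and 0.21 ± 0.0701 with Trim71 loss (adjusted p 0.106 and 0.0803) and -0.14 ± 0.0757 in both Lin28a comparisons (adjusted p 0.146 and 0.145).

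Among the linker histones, Hist1h1c fell with Lin28a loss. Values were 4.79, 5.01, 4.80 and 4.93 in WT-WT, 4.76, 4.97, 5.03 and 4.98 in KO-WT, 4.41, 4.47, 4.32, 4.36 and 4.20 in WT-KO and 4.56, 4.58, 4.39, 4.50 and 4.58 in KO-KO. The 2 Lin28a states did not overlap, and the Trim71 states did within each. The difference was -0.53 ± 0.0864 with Trim71 intact (adjusted p 0.000145), -0.41 ± 0.0864 without Trim71 (adjusted p 0.00122) and -0.36 ± 0.0864 for loss of both (adjusted p 0.00313). In clones 1 and 1-4 alone the last 2 were -0.41 (adjusted p 0.129) and -0.29 (adjusted p 0.116), and in clones E3 and C1 alone loss of both gave an adjusted p of 0.0537. Hist1h1a, the other linker histone measured, was not called. It differed by -0.24 ± 0.122 with Lin28a loss (adjusted p 0.122) and -0.19 ± 0.122 without Trim71 (adjusted p 0.227), and no 100-base window of it was shared.

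The single measured H2A gene, Hist1h2af, showed the largest differences of the 10 for Lin28a loss without Trim71 and for loss of both. Values were 5.15, 4.72, 4.62 and 4.35 in WT-WT and 4.67, 5.00, 5.00 and 4.78 in KO-WT. They were 3.97, 4.45, 4.22, 4.26 and 4.00 in WT-KO and 3.41, 3.56, 3.44, 3.51 and 4.25 in KO-KO. WT-WT and WT-KO overlapped, and KO-KO lay below both Lin28a-intact genotypes. Lin28a loss without Trim71 gave -1.23 ± 0.183, or 0.427 of the KO-WT level (adjusted p 6.5e-05), and loss of both -1.07 ± 0.183, or 0.475 of the WT-WT level (adjusted p 0.000209). The former was not called in clones 1 and 1-4 alone (-0.94, adjusted p 0.135). These were the only 2 of the 17 called differences of histone genes that reached 2-fold.

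Lin28a loss with Trim71 intact gave -0.53 ± 0.183 for Hist1h2af (adjusted p 0.0289). That call was lost without WT-WT replicate 1 (-0.31, adjusted p 0.169), WT-WT replicate 2 (0.065), WT-KO replicate 1 (0.100) or WT-KO replicate 5 (0.0825), and in each set of clones and the days with all 4 genotypes (adjusted p 0.0844 to 0.14). Trim71 loss without Lin28a gave -0.55 ± 0.17 (adjusted p 0.0574), and without KO-KO replicate 5, the highest of its genotype, -0.75 (adjusted p 0.00226).

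Hist1h2af overlaps Gm44297 on the opposite strand, and reads of both genes cannot be told apart in a library without strand. Gm44297 fell as well: WT-KO against WT-WT gave -0.56 ± 0.178 (adjusted p 0.0188), KO-KO against KO-WT -1.17 ± 0.178 (adjusted p 7.88e-05) and KO-KO against WT-WT -1.01 ± 0.178 (adjusted p 0.000273). Its values in KO-KO were 3.24, 3.25, 3.11, 3.09 and 3.89, so that KO-KO replicate 5 was the highest there too. Of the 100-base windows of Hist1h2af 65.3% were shared with other transcripts, mostly H2A genes, and 16 genes shared at least 1. Among these was H2afx, whose values ran from 9.49 to 10.46. It fell by 0.40, 0.72 and 0.46 log2 units in the 3 comparisons just given for Gm44297. The part of H2afx reads in the values of Hist1h2af was not tested. The counting of reads from shared windows is not given in the sources used here, so the differences of Hist1h2af are uncertain.

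Of the 3 measured H3 and H4 genes, Hist1h4i alone was called. It had values of 5.35, 5.68, 5.18 and 5.20 in WT-WT, 5.22, 5.45, 5.55 and 5.61 in KO-WT, 5.23, 5.55, 5.16, 5.36 and 5.21 in WT-KO and 5.11, 5.03, 4.85, 5.06 and 5.13 in KO-KO. KO-KO lay below the other 3 genotypes, which overlapped. Against KO-WT the difference was -0.42 ± 0.12 (adjusted p 0.00996, or 0.0677 with only clones E3 and C1), and against WT-WT -0.32 ± 0.12 (adjusted p 0.0408). The latter was lost in 8 of 18 fits when libraries were left out in turn: without WT-WT replicate 1 or 2, WT-KO replicate 1, KO-KO replicate 1, 2, 3 or 4, or KO-WT replicate 2. Adjusted p-values there reached 0.236, at -0.17, without WT-WT replicate 2. It was also lost under both other scalings, the GC and length correction, the compared genotypes alone, each set of clones and the days with all 4 genotypes, with adjusted p-values from 0.0509 to 0.315. With Trim71 intact, Lin28a loss gave -0.05 ± 0.12 (adjusted p 0.768).

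Hist1h4d and Hist1h3c were called in no comparison. The largest difference of Hist1h4d was -0.20 ± 0.0811 for Lin28a loss without Trim71 (adjusted p 0.0549). That of Hist1h3c was 0.19 ± 0.077 for Trim71 loss with Lin28a intact (adjusted p 0.109), where KO-WT at 3.88 to 4.00 lay above WT-WT at 3.62 to 3.81. The interaction estimate of Hist1h3c was -0.28 ± 0.101 (adjusted p 0.249).

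**Figure D3:**
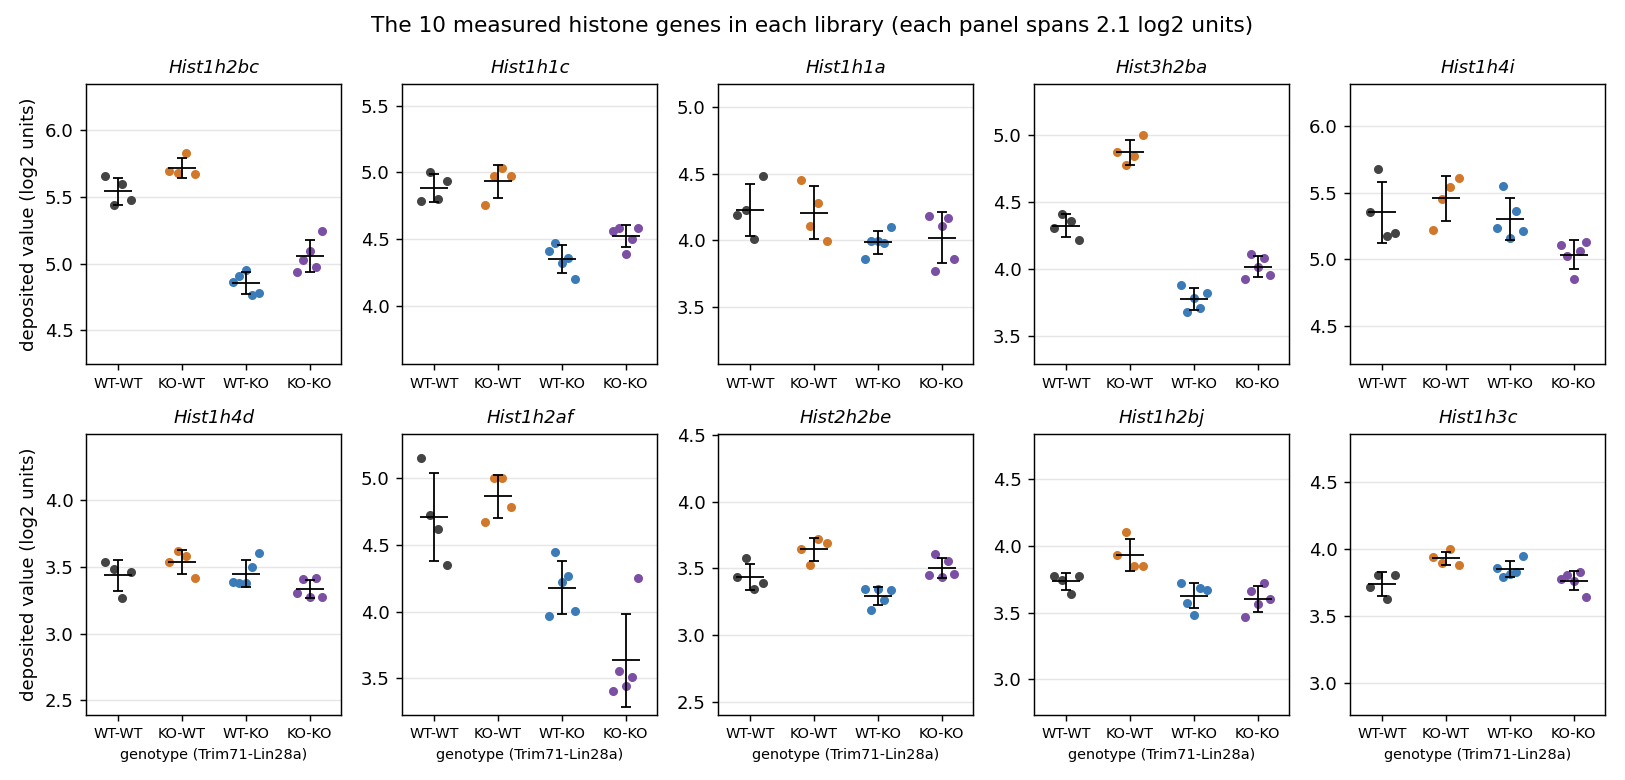
Deposited log2 value (vertical axis) of each measured histone gene in each library (points) by genotype (horizontal axis), with the mean and SD as bars; every panel spans the same number of log2 units. The Lin28a-null libraries lie below the Lin28a-intact ones for Hist1h2bc, Hist1h1c and Hist3h2ba. The KO-KO mean is lowest for Hist1h2af, Hist1h4i, Hist1h2bj and Hist1h4d.

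The genes that were not measured were fitted only when the filter was removed, over all 21685 genes. After Lin28a loss with Trim71 intact, 5 of the 36 were called, 4 of them lower, against 36.2% of all genes (19.1% lower). They were Hist1h1e, Hist1h2bk, Hist1h4j, Hist3h2a and Hist2h4. In Trim71-null cells 15 were called, 14 of them lower, against 37.3% (19.1% lower). After loss of both 8 were called, 7 of them lower, against 39.1%. After Trim71 loss 0 of the 36 were called in either Lin28a state, against 6.27% and 5.01% of all genes. The spread between libraries shrinks at such values: genes averaging below 1 had a median SD within genotypes of 0.0529, and genes averaging 3 to 6 had 0.113, so a small difference can pass at a level of almost no expression.

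Summed over the 46 genes after returning to linear units, a library held 319.4 to 348.6 units in WT-WT, 353.8 to 381.6 in KO-WT, 279.3 to 297.1 in WT-KO and 271.3 to 289.7 in KO-KO. KO-WT was highest, and both Lin28a-null genotypes lay below both Lin28a-intact ones. The 10 measured genes carried most of this: their mean sum was 231.5 units in WT-WT, 259.4 in KO-WT, 184.5 in WT-KO and 181.7 in KO-KO, while the mean sum of the other 36 genes was 104.0, 108.3, 100.6 and 97.84. Since most histone mRNA lacks a poly(A) tail, carry-over of other RNAs without one was examined in the same libraries. These were 52 small RNAs, mostly small nucleolar RNAs, many of which are cut from introns of other genes and cannot be told from them here. Their sum was 421.4 to 437.6 in WT-WT, 416.4 to 437.9 in KO-WT, 497.7 to 516.3 in WT-KO and 488.5 to 517.0 in KO-KO. They were higher in the genotypes in which the histone sum was lower. Of the 14 tested, 7, 7 and 6 rose after Lin28a loss with Trim71 intact, without Trim71 and with loss of both, and 0 fell. Over all tested genes 20.3%, 20.8% and 21% were called higher and 22%, 22% and 24.6% lower. Among the small RNAs that rose was Snora73b (0.65 ± 0.064, limma adjusted p 9.93e-07, with Trim71 intact). After Trim71 loss 0 of the 14 were called in either Lin28a state, against 11.2% and 8.38% of all tested genes. The part of carry-over in the histone differences was not tested.

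**Figure D4:**
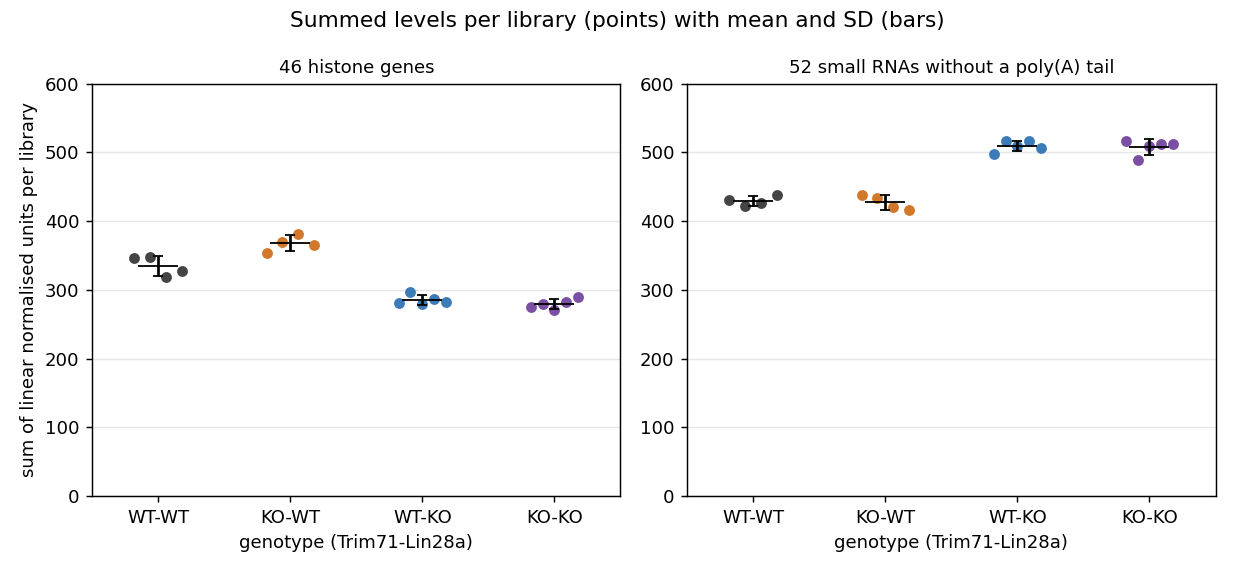
Sum of linear normalised units per library (vertical axis, from 0) for the 46 histone genes and for 52 small RNAs without a poly(A) tail, by genotype (horizontal axis), with mean and SD as bars. The histone sum is at most 297.1 in Lin28a-null libraries and at least 319.4 in the others, while the small RNA sum is at least 488.5 and at most 437.9.

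Genes that process and destroy histone mRNA were listed as well, and 26 of 27 were tested. Slbp itself was not called, at 0.13 ± 0.0534 in WT-KO against WT-WT (adjusted p 0.0697) and 0.09 ± 0.0534 in KO-KO against KO-WT (0.203), and at -0.03 ± 0.0576 and -0.07 ± 0.0494 after Trim71 loss. Lsm10, a part of the U7 particle, fell by 0.37 ± 0.0652 in WT-KO against WT-WT (adjusted p 0.000325), by 0.42 in KO-KO against KO-WT (8.39e-05) and by 0.43 in KO-KO against WT-WT (6.46e-05). Its partner Lsm11 was not called, at 0.04, -0.10 and -0.02 in the same comparisons (adjusted p 0.665, 0.198 and 0.849). The cleavage factor Cpsf1 rose by 0.35 ± 0.0426 with Trim71 intact, and the cap-binding protein Ncbp2 fell by 0.24 ± 0.0628. Over the list, 4 rose and 4 fell with Trim71 intact, 5 and 3 without Trim71, and 5 and 6 with loss of both. These are 30.8%, 30.8% and 42.3% of the list, below the 42.4%, 42.8% and 45.6% of all tested genes. After Trim71 loss 1 rose and 1 fell with Lin28a intact, 7.69% of the list against 11.2%, and 0 were called without Lin28a, against 8.38%. Medians lay between -0.0448 and 0.0295.

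Of 14 genes that drive histone transcription, 1 rose and 1 fell after Trim71 loss with Lin28a intact (14.3%, against 11.2% of all tested genes), and 1 rose without Lin28a (7.14%, against 8.38%). After Lin28a loss 2 rose and 1 fell with Trim71 intact (21.4%, against 42.4%) and 1 rose without Trim71 (7.14%, against 42.8%). After loss of both, 4 rose and 2 fell (42.9%, against 45.6%). Casp8ap2 fell by 0.57 ± 0.177 after Trim71 loss with Lin28a intact (adjusted p 0.0495), by 0.61 ± 0.164 after Lin28a loss with Trim71 intact (0.00673) and by 0.56 ± 0.164 with loss of both (0.0108). Without Trim71, Lin28a loss gave 0.005 ± 0.164 for it (0.983). Npat was not called; its differences ran from -0.31 ± 0.133 (adjusted p 0.0731) in WT-KO against WT-WT to 0.05 ± 0.123 (0.843) after Trim71 loss without Lin28a. Pou2f1, which encodes Oct-1, rose by 0.51 ± 0.0943 after Lin28a loss without Trim71 (adjusted p 0.000469). E2f2 rose by 0.24 ± 0.0707 and 0.31 ± 0.0605 after Trim71 loss (limma adjusted p 0.0381 and 0.00437). Over 14724 genes the differences of KO-WT, WT-KO and KO-KO from WT-WT rose with GC content (rank correlations 0.502, 0.246 and 0.241). Values with that trend removed are not given for the genes of this list or of the other lists.

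Histone mRNA of the replication-dependent kind is made in S phase, so cell cycle genes are given beside the histone values. Of 46 DNA replication genes, 9 rose and 4 fell after Lin28a loss with Trim71 intact, 8 and 6 without Trim71, and 6 and 13 with loss of both. These are 28.3%, 30.4% and 41.3% of the list, below the 42.4%, 42.8% and 45.6% of all tested genes. After Trim71 loss 2 rose and 5 fell with Lin28a intact (15.2%, against 11.2%), and 0 rose and 8 fell without Lin28a (17.4%, against 8.38%). The helicase subunit Mcm4 fell by 0.27 ± 0.0508 in the former and Mcm3 by 0.19 ± 0.037 in the latter (adjusted p 0.0056 and 0.00519), where Hist3h2ba rose in both. Orc6, a subunit of the origin recognition complex, fell by 0.23 ± 0.0452, 0.13 ± 0.0452 and 0.20 ± 0.0452 in the 3 Lin28a comparisons in the order above. Pole, the catalytic subunit of the leading-strand polymerase, rose by 0.40 ± 0.0446, 0.52 ± 0.0446 and 0.36 ± 0.0446 there. Of 20 mitotic genes, 12, 6 and 15 fell and 0 rose in these comparisons, against 22%, 22% and 24.6% of all tested genes lower. Among them were Cenpe (-0.98 ± 0.158) and Mki67 (-0.79 ± 0.153) with Trim71 intact. Without Trim71 these 2 genes were not called, at -0.22 and -0.12 (limma adjusted p 0.276 and 0.54). Both also fell after Trim71 loss with Lin28a intact, by 0.68 ± 0.171 and 0.59 ± 0.165 (adjusted p 0.0229 and 0.033). After Trim71 loss 1 mitotic gene rose and 4 fell with Lin28a intact (25%, against 11.2% of all tested genes). Without Lin28a 0 were called, against 8.38%. The part of these genes in the histone differences was not tested. In bulk libraries fewer cells of a type and less RNA per cell cannot be told apart.

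Markers of other cell types moved with Lin28a state too. All 8 trophectoderm markers were in the table, with Elf5 (0.771 to 1.02) and Cdx2 (1.94 to 3.13) below the level that counts as measured. After Lin28a loss in either Trim71 state 4 of the 6 tested fell, against 22% of all tested genes lower. Eomes and Tfap2c were not called there. With loss of both the same 4 fell and Eomes rose (0.26 ± 0.0866, limma adjusted p 0.0228), against 24.6% lower and 21% higher. The summed level of the 8 was 4283 to 5712 units in WT-WT, 4258 to 5285 in KO-WT, 1081 to 1311 in WT-KO and 961.1 to 1202 in KO-KO. Of 8 primitive endoderm markers, 6 were tested and Foxa2 and Sox17 were not. After Lin28a loss 6 fell with Trim71 intact and 4 without, against 22% of all tested genes lower in each. With loss of both 4 fell, against 24.6%. After Trim71 loss 1 and 2 rose with and without Lin28a, against 4.74% and 4.26% higher. The sum of the 8 was 1447 to 1779 in WT-WT, 1904 to 2453 in KO-WT, 963.9 to 1259 in WT-KO and 1365 to 1680 in KO-KO. It was highest in KO-WT, as were the values of Hist3h2ba. Embryonic stem cell markers summed to 30520 to 35070 in Lin28a-intact and 38870 to 45230 in Lin28a-null libraries. The part of the markers in the histone differences was not tested.

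Deviations of the 10 genes from their fitted values were compared in pairs. Over 18 libraries, which share day and clone, the mean residual correlation of the 45 pairs was 0.0513, against 0.00547 for all tested genes. Pairs ran from -0.558 for Hist1h2bc with Hist1h3c to 0.744 for Hist1h1c with Hist1h4i. Hist3h2ba and Hist2h2be, which lie in different clusters, had 0.727.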

How the data were processed

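Polyadenylated RNA of 19 libraries was sequenced on a HiSeq1500, per the labels' protocols. The submitters' processing notes name CASAVA 1.8, STAR and DESeq2 without a role; the genome build and annotation are not given in the sources used here. The deposited table holds log2 normalised expression, read from its values (-0.712 to 16.2989; 4126 of 412015 below 0). Fold sizes hold on that scale only. In a fit of genotype and day, the largest day term was 8.18e-09, against 0.815 with days moved within genotype, so the authors' values already had day effects removed. KO-WT replicate 5, alone on its day, matched the average of KO-WT replicates 1 to 4 within 1.5e-08 and was left out.

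The 14988 genes that reached log2 of 10 in 4 or more libraries were tested with limma 3.58.1 in R 4.3.3: 1 mean per genotype, a day term, eBayes with trend, 10 residual degrees of freedom, Benjamini-Hochberg adjustment over all tested genes, called under 0.05. The fit was checked on simulated data. Harvest day pairs the libraries, per the labels; it cannot be checked by correlation once day effects are removed. Members, lists and tests were chosen with earlier results of these data known. The naming rule took every measured member, called ones first, plus called members of the lists, Slbp, Npat, Casp8ap2, Lsm10 and Lsm11. Gm44297, Rn7sk, Snord72 and Snora31 were added after their values were seen. Lists of histone chaperones and of fibroblast and neural markers were summarised too. Transcript length, GC content, stem-loops and shared 100-base windows came from GENCODE M21 and promoters from RefSeq (GRCm38.p6), matched by symbol. Alternatives covered the day term, filter, scaling, GC and length, variance trend, genotypes fitted, clones, days and each library left out.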

Additional observations from a re-analysis of the deposited data

Results flagged for a closer look

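Of 40 groups of 4 or 5 libraries examined for the 10 measured histone genes, 2 held a library far from the others, and chance alone marks about 1 group in 20. KO-WT replicate 3 was the highest of its genotype for Hist1h2bc, at 5.83, with a gap of 0.854 of the group's range. Without it, Lin28a loss in Trim71-null cells gave -0.61 (limma adjusted p 9.03e-05). KO-KO replicate 5 was the highest of its genotype for Hist1h2af, at 4.254, with a gap of 0.821 of the range. Without it, the Hist1h2af difference after Trim71 loss in Lin28a-null cells was -0.75 (adjusted p 0.00226), and the interaction was -0.91 (adjusted p 0.148).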

How the results depend on the processing

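Of 496 values of the 17 called gene differences under other settings, 440 kept direction and call, 56 kept direction without the call and 0 reversed. Counts of called histone genes changed as follows; the cause was not tested except where a setting itself removes genes or libraries. Without the day term, which is the fit without the replicate block, counts were 4 for Trim71 loss with Lin28a intact, 4 for Trim71 loss without Lin28a and 1 for the interaction, and with all 19 libraries 5, 4 and 3; those fits count degrees of freedom that the removed day effects had used up. The block changed no other count by over 1.5 times. A filter at 50 units leaves 1 histone gene, Hist1h2bc, and gave 0, 0, 1, 1 and 1 in the 5 genotype comparisons in the order Trim71 loss with and without Lin28a, Lin28a loss with and without Trim71, and loss of both. No filter gave 0 for Trim71 loss without Lin28a and 9, 21 and 13 for the last 3. For Trim71 loss with Lin28a intact, the compared genotypes alone and clones E3 and C1 alone gave 0. Without Lin28a, 75th percentile scaling, the compared genotypes alone, clones 1 and 1-4 alone and the days with all 4 genotypes gave 0. Clones 1 and 1-4 alone gave 2 for Lin28a loss without Trim71 and 2 for loss of both, and clones E3 and C1 alone gave 2 for loss of both. Leaving out 1 library at a time gave 1 to 1, 0 to 2, 3 to 5, 6 to 7 and 4 to 5 in the same order and 0 to 0 for the interaction, which uses all 4 genotypes and so has no fit of the compared genotypes alone. Low values limit the other 36 genes, and depth is unknown.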

Other observations

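Genes listed as replication-independent histone genes were set beside these for comparison, and the poly(A) state of each mRNA was not examined. Of 16 symbols, 12 were in the table and 11 were tested. H1f0, the linker histone of slowly dividing cells, rose after Trim71 loss, by 0.53 ± 0.0494 with Lin28a intact (limma adjusted p 2.39e-05) and by 0.45 ± 0.0423 without Lin28a (1.09e-05). It fell after Lin28a loss, by 0.26 ± 0.0457 with Trim71 intact (0.000296) and by 0.35 ± 0.0457 without Trim71 (1.93e-05). Values of H1f0 were 8.87 to 8.98 in WT-WT, 9.41 to 9.52 in KO-WT, 8.62 to 8.77 in WT-KO and 9.07 to 9.15 in KO-KO, with no overlap between any of the 4.

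H2afj rose by 0.55 ± 0.0971 after Trim71 loss with Lin28a intact (adjusted p 0.00344) and fell after Lin28a loss, by 0.49 ± 0.0899 with Trim71 intact (0.000443) and by 0.96 ± 0.0899 without Trim71 (5.4e-07). H2afx, the variant phosphorylated at DNA breaks, fell by 0.40 ± 0.0859, 0.72 ± 0.0859 and 0.46 ± 0.0859 after Lin28a loss with and without Trim71 and after loss of both. The macroH2A genes rose in the same comparisons, H2afy by 0.61 ± 0.0596, 0.47 ± 0.0596 and 0.54 ± 0.0596 and H2afy2 by 0.53 ± 0.0887, 0.33 ± 0.0887 and 0.32 ± 0.0887. Over the list, 4 rose and 0 fell after Trim71 loss with Lin28a intact, 1 and 1 without Lin28a, 4 and 3 after Lin28a loss with Trim71 intact, 2 and 4 without Trim71, and 3 and 3 with loss of both. In that order 36.4%, 18.2%, 63.6%, 54.5% and 54.5% of the 11 were called, against 11.2%, 8.38%, 42.4%, 42.8% and 45.6% of all tested genes.

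Of 25 histone chaperones, 6 fell after Trim71 loss with Lin28a intact and 2 without Lin28a, and 5, 4 and 4 rose and 5, 3 and 5 fell after Lin28a loss with Trim71 intact, without it and with loss of both. In that order 24%, 8%, 40%, 28% and 36% of them were called, against the shares of all tested genes just given, so only the first lies above its background. Of 3 fibroblast markers tested, 2 fell in each of the last 3 comparisons, against 22%, 22% and 24.6% of all tested genes lower. The 4 fibroblast markers in the table summed to 94.22 to 125.4 units in Lin28a-intact and 69.55 to 85.53 in Lin28a-null libraries. Of 5 neural markers, 3 rose in each of these comparisons, against 20.3%, 20.8% and 21% of all tested genes higher, and 1, 0 and 1 fell.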
